A study of Mus musculus with 48 samples.

Results

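The livers of male mice fed a high-fat diet (HFD) for 2 weeks were compared with those of male mice kept on a regular diet (RD) for the same time. The comparison takes 6 of the 48 libraries of the series, 3 on each diet, and all were chosen by their sample names. The HFD libraries carry the numbers 12, 13 and 14 in the labels, and the RD libraries carry 6, 7 and 8. The text calls them HFD 12, 13 and 14 and RD 6, 7 and 8. Both groups were C57BL6/J males from Charles River that started on their diet at 8 weeks of age. The RD was a standard Teklad chow, and 45% of the calories of the HFD came from fat. The series also covers females, a cohort fed for 12 weeks, and visceral white adipose tissue. The female livers at 2 weeks and the male livers at 12 weeks, each 3 against 3 libraries, are used here to test whether the diet effect differed.

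The liver makes fatty acids from dietary carbohydrate, and this synthesis is controlled by insulin, by SREBP-1c and by ChREBP. When fat replaces carbohydrate in the food, hepatic fatty acid synthesis is known to be turned down. The liver also clears foreign compounds through cytochrome P450 enzymes, which oxidise them, and through conjugating enzymes such as the glutathione S-transferases, several of which respond to the transcription factor NRF2. Finally, it secretes plasma proteins, and cytokines such as interleukin-6 shift this output towards the acute phase proteins.

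Levels are in CPM, the usual scaling of counts to a fixed library total, after TMM normalisation, and changes are log2 fold changes of HFD over RD ± SE from edgeR's quasi-likelihood test. The words rose and fell are kept for genes that passed this test, at an adjusted p (Benjamini-Hochberg, over all 15897 genes tested) under 0.05. A gene is said to be wholly lower or wholly higher where all 3 HFD libraries lay on one side of all 3 RD libraries. The labels give each library its own number but do not say how the animals were housed, so p-values measure the spread between these libraries.

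The 6 libraries held 67644737 to 78615053 expected counts, with 17657 to 18082 genes detected. A pair of them stood apart. HFD 13 lay over 2-fold above or below both other HFD libraries for 211 genes, 117 of them above and 94 below, and RD 8 lay as far from the other RD libraries for 142 genes. In the other 4 libraries this number was 39 to 45. HFD 13 had the highest level of the 6 libraries for 25 of 26 acute phase genes. RD 8 held RNA of exocrine pancreas genes, summing to 8090 CPM, and had 3.6% of its counts in mitochondrial genes against 5.93 to 8.15% in the others. Its marker genes of hepatocytes summed to 142000 CPM, within a range of 112000 to 142000 CPM over the 6 libraries. Values without these libraries are given where a result rests on them.

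After 2 weeks 54 genes passed the test, 0.34% of those tested. Of these 19 rose (0.12%) and 35 fell (0.22%). Among all genes tested, 1435 were wholly higher (9.03%) and 1311 were wholly lower on HFD (8.25%), and the median log2 fold change was 0.01. Of the genes that passed, 18 were wholly higher and 28 were wholly lower. HFD 13 was the highest HFD library for 14 of the 19 genes that rose and the lowest for 19 of the 35 that fell. Without HFD 13, 12 genes passed, all of them lower. Leaving out RD 8 gave 23, and leaving out both libraries gave 2, Slc39a4 and Cyp3a11. Counts without HFD 14, RD 6, RD 7 and HFD 12 were 21, 25, 42 and 113, and most calls were lost in more than 1 of these fits. Each such fit leaves 2 libraries in 1 group, so a lost call need not mean that it rested on the library left out. Ugt1a5 lost its call without each of the 6 libraries, while its log2 fold change stayed at -2.28 to -2.2 over all settings. Slc39a4 was the one gene of the 54 that passed under every setting tried. All 54 kept their direction under every setting that tested them.

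**Figure D1:**
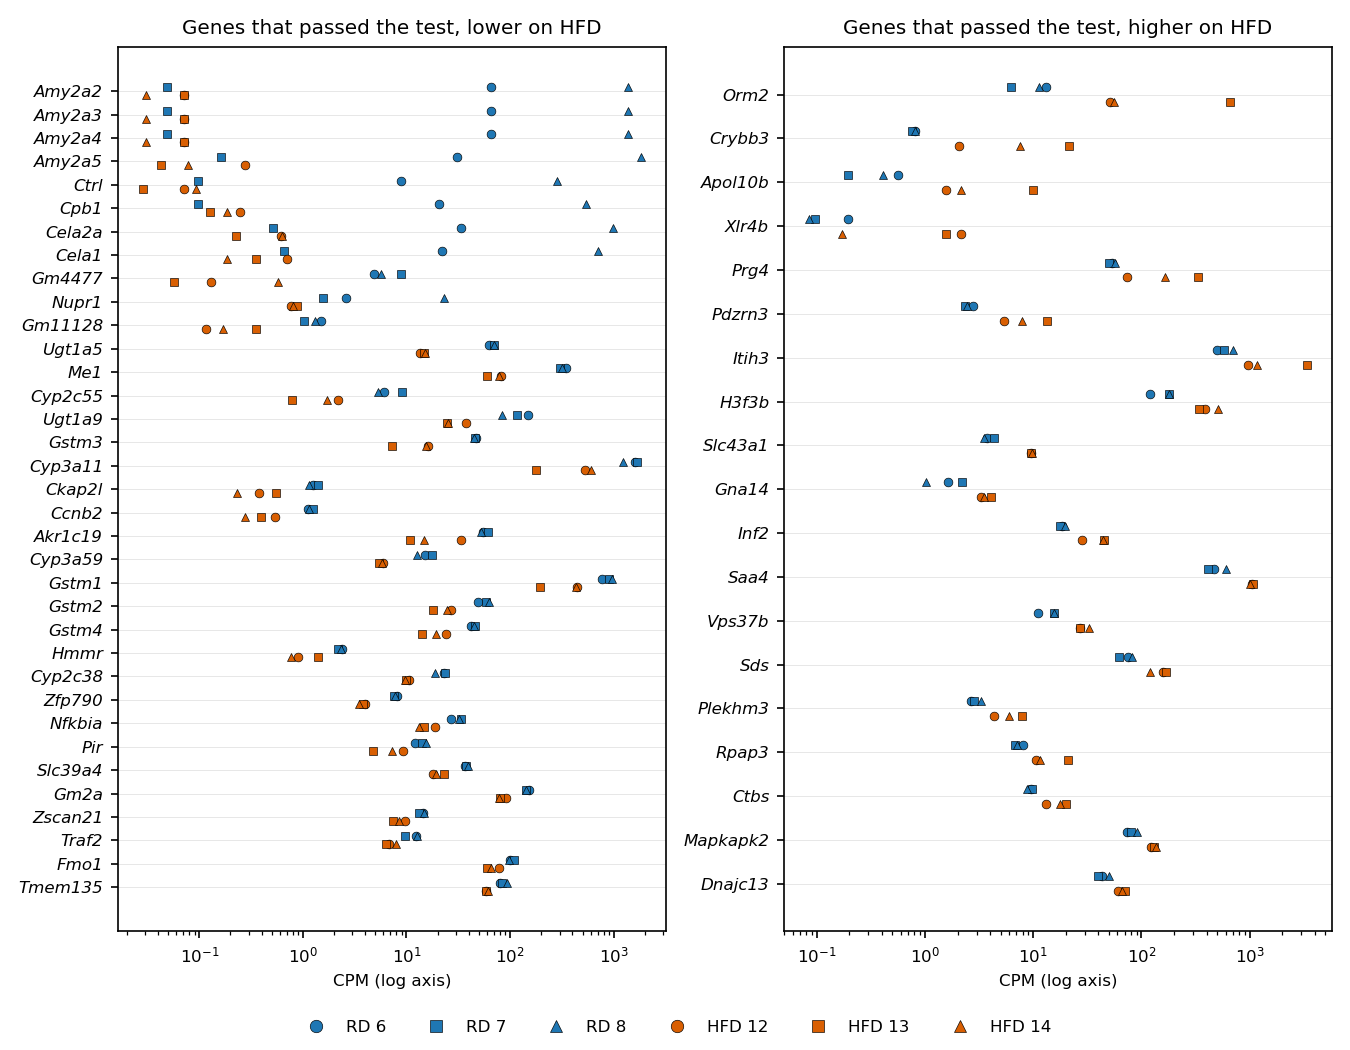
CPM on a log axis of the 54 genes that passed the test in male liver at 2 weeks, 1 point per library, with blue for RD and orange for HFD. The pancreatic genes at the top left are high in RD 8 and RD 6 and low in RD 7 and all HFD libraries, whereas Me1, Slc39a4 and Slc43a1 show 2 tight, separate groups.

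Fatty acid synthesis genes were lower on HFD as a group. Of 24 listed genes 16 were wholly lower, against 8.25% of all genes, and 1 was wholly higher, against 9.03%. The list's median log2 fold change was -0.69 against 0.01 over all genes. The test called 1 of the 24, Me1, lower, against 0.22% of all genes that fell. Summed over the list, the RD libraries held 17600 to 19000 CPM and the HFD libraries 4120 to 5390 CPM. The desaturase gene Scd1 made up most of the RD sums. It alone held 12000 to 13200 CPM on RD and 652 to 1290 CPM on HFD, and it was not called.

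Me1 encodes cytosolic malic enzyme, which supplies NADPH for fatty acid synthesis, and lies on GRCm38 chr9:86581371-86695953. Its level was 343, 301 and 314 CPM in RD 6, 7 and 8 and 81.3, 59.6 and 78.1 CPM in HFD 12, 13 and 14. The HFD libraries all lay far below the RD libraries, and each group was tight. Me1 fell by 2.13 ± 0.32 on the log2 scale, with an adjusted p of 0.0062 in the edgeR test. The call was kept without HFD 13 (adjusted p = 0.049) and was lost when RD 8 was left out as well (-2.02 ± 0.41, adjusted p = 0.12).

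Scd1, the stearoyl-CoA desaturase that makes oleic acid, showed a larger difference in level. It stood at 13200, 12000 and 12000 CPM on RD and at 1250, 652 and 1290 CPM on HFD. No HFD library came near an RD library. The log2 fold change was -3.55 ± 0.76, and the adjusted p of 0.054 missed the threshold in the fit that shares its spread over all 24 liver libraries. It passed when the 6 libraries were fitted alone (adjusted p = 0.0035) and with DESeq2 (adjusted p = 2.2e-06), and it did not pass without HFD 13 (adjusted p = 0.25).

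The same held for other enzymes of the pathway, with the threshold missed in each. Acaca, the cytosolic acetyl-CoA carboxylase that makes malonyl-CoA, was at 219, 165 and 174 CPM on RD and at 74.7, 92.7 and 105 CPM on HFD (-1.04 ± 0.24, adjusted p = 0.064). Elovl6, which lengthens palmitate, was at 127, 118 and 73.3 CPM on RD and at 44.6, 36.4 and 54.2 CPM on HFD (-1.24 ± 0.33, adjusted p = 0.11). Both genes were wholly lower on HFD. The elongase Elovl5 and the delta-6 desaturase Fads2, which act on polyunsaturated fatty acids, had log2 fold changes of -0.70 ± 0.16 (adjusted p = 0.062) and -0.72 ± 0.17 (adjusted p = 0.066). Fatty acid synthase, Fasn, named here after its values were seen, was at 107, 128 and 117 CPM on RD and 53.8, 72.9 and 63.6 CPM on HFD, without passing the test (-0.89 ± 0.46, adjusted p = 0.53).

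The gene of the regulator SREBP-1 did not follow the enzymes. Srebf1 was at 71.4, 89.9 and 81.7 CPM on RD and at 115, 167 and 144 CPM on HFD. It was the 1 wholly higher member of the list, with a log2 fold change of 0.81 ± 0.45 (adjusted p = 0.56). DESeq2 called 9 of the 24 list members lower, and the fit of the 6 libraries alone called 4.

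**Figure D2:**
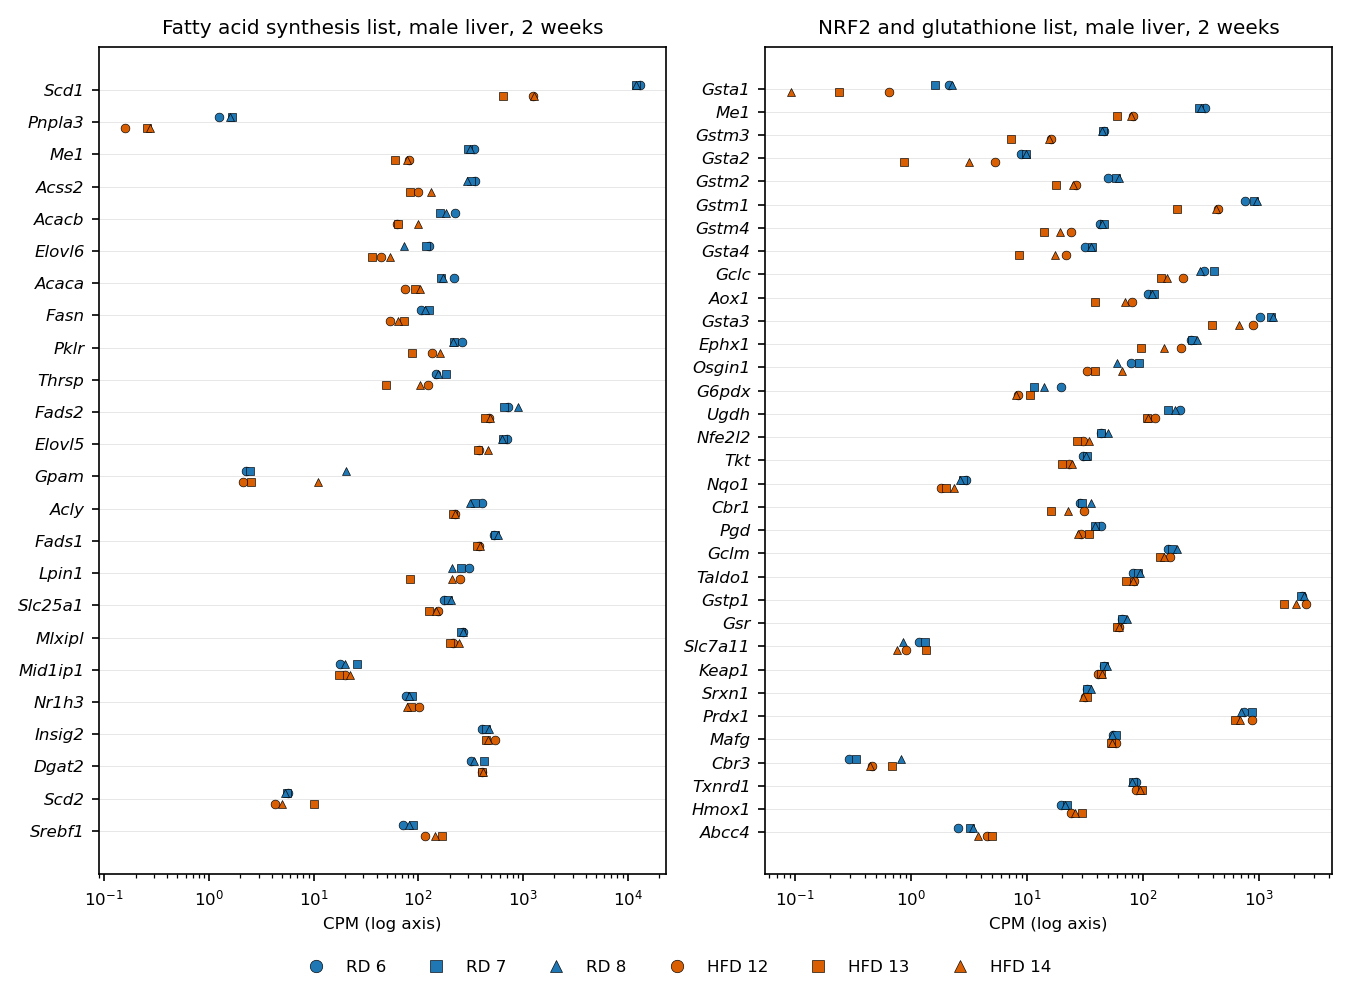
CPM on a log axis of the tested members of the fatty acid synthesis list (left) and of the NRF2 and glutathione list (right), 1 point per library, ordered by log2 fold change with the lowest at the top. Orange HFD points lie left of blue RD points for 16 of 24 and 20 of 33 genes, against 8.25% of all genes tested. Srebf1 lies the other way.

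A second group of genes that fell encodes glutathione S-transferases of the mu class, which conjugate glutathione to electrophiles. Gstm1, Gstm2, Gstm3 and Gstm4 all fell, and they lie together on GRCm38 chromosome 3 (Gstm3 at chr3:107963696-107969283, Gstm4 at chr3:108040408-108044894). They are close paralogs, so reads shared between them may have been split by the authors' estimation, and the 4 calls are not independent.

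Gstm3 was at 46.5, 45.6 and 44.6 CPM in RD 6, 7 and 8 and at 16.2, 7.32 and 15.6 CPM in HFD 12, 13 and 14. Gstm1 was at 764, 904 and 967 CPM on RD and at 444, 196 and 428 CPM on HFD. In both genes the groups were apart, and HFD 13 was the lowest library. Gstm3 fell by 1.81 ± 0.30 (log2, adjusted p = 0.012), and Gstm1 fell by 1.30 ± 0.23 (adjusted p = 0.017). Gstm2 fell by 1.30 ± 0.22 (adjusted p = 0.012) and Gstm4 by 1.22 ± 0.20 (adjusted p = 0.0081). Without HFD 13 the changes of Gstm2, Gstm3 and Gstm4 no longer passed, and without RD 8 that of Gstm1 did not.

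Of the 33 tested genes on the list of NRF2 targets and glutathione enzymes, 5 fell (the 4 Gstm genes and Me1, which is on both lists) and none rose, against 0.22% of all genes that fell. Wholly lower were 20 of the 33, against 8.25% of all genes, and 2 were wholly higher, against 9.03%. These 2 were the heme oxygenase Hmox1 and the transporter Abcc4, both chosen after their values were seen. The list's median log2 fold change was -0.49, and it was -0.54 with HFD 13 and RD 8 left out, where no member passed. Nfe2l2, which encodes NRF2 itself and was chosen after its values were seen, was at 43.6, 43.5 and 50.3 CPM on RD and at 30.2, 27 and 34.3 CPM on HFD. It was wholly lower but not called (-0.59 ± 0.16, adjusted p = 0.12). Ephx1, microsomal epoxide hydrolase, was likewise wholly lower and not called (-0.83 ± 0.21, adjusted p = 0.10).

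Pir, which encodes the iron-binding protein pirin and is not on the list, fell as well. Its level was 12.2, 14.2 and 15.4 CPM on RD and 9.26, 4.72 and 7.32 CPM on HFD. Each HFD library was below each RD library, and Pir fell by 0.97 ± 0.18 (adjusted p = 0.018). Akr1c19, an aldo-keto reductase, fell by 1.52 ± 0.31 (adjusted p = 0.040). The call of Pir was lost without HFD 13, HFD 14 or RD 8, and that of Akr1c19 without any one library other than HFD 12.

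The antioxidant response element, the site that NRF2 binds, has the core letters TGACNNNGC. The core was searched on both strands in the 250 bases before each RefSeq start (GRCm38.p6), where 10.2% of all 32841 windows hold it. Of the tested genes with a window 13.8% hold it in at least 1 of their windows. On the NRF2 list 9 of 29 genes with a window hold it (31%), and on the fatty acid synthesis list 1 of 20 (5%). Of 31 genes that fell and have a window 5 hold it (16.1%), and of 16 genes that rose and have a window 4 do (25%). Pir is among the 5 that fell. Its window (chrX:164269181-164269430, plus strand) is shown with the match in capitals, which reads in the opposite orientation to the gene.
Pir: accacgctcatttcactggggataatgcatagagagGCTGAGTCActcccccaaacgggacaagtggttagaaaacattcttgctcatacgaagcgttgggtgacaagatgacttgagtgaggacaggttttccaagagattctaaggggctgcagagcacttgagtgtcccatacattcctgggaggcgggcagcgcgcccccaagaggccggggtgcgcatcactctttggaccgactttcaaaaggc
A match of letters is a description of the window and not a binding site.

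Genes of drug metabolism fell in a few named families. On the list of 32 tested P450 genes 4 fell, Cyp3a11, Cyp3a59, Cyp2c38 and Cyp2c55, against 0.22% of all genes, and none rose. Wholly lower were 8 of the 32, against 8.25% of all genes, and wholly higher were 4, against 9.03% of all genes. The median log2 fold change of the list was -0.07. It was 0.07 without HFD 13 and 0.11 without RD 8 as well.

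Cyp3a11, the main CYP3A enzyme of mouse liver, was at 1620, 1660 and 1220 CPM on RD and at 527, 179 and 607 CPM on HFD. The neighbouring paralog Cyp3a59 was at 15.2, 17.8 and 12.6 CPM on RD and at 5.92, 5.42 and 5.75 CPM on HFD. The groups were apart in both. Cyp3a11 fell by 1.78 ± 0.30 (adjusted p = 0.012) and passed without HFD 13, without RD 8 and without both, but not when the 6 libraries were fitted alone (adjusted p = 0.16). Cyp3a59 fell by 1.42 ± 0.22 (adjusted p = 0.0062). Cyp2c38 fell by 1.12 ± 0.24 (adjusted p = 0.041) and Cyp2c55 by 2.12 ± 0.45 (adjusted p = 0.044), and both calls were lost without HFD 13. Cyp2c38 did not pass without any other one of the 6 libraries either, and Cyp2c55 kept its call only without HFD 12.

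Among 40 tested genes of conjugation and transport, 2 fell, against 0.22% of all genes, and none rose. Wholly lower were 16, against 8.25% of all genes, and wholly higher were 2, against 9.03%. The list's median log2 fold change was -0.31. The median was -0.14 without HFD 13 and -0.17 without RD 8 as well, and HFD 13 was below all RD libraries for 31 of the 40 genes against 19 for HFD 12 and 21 for HFD 14. Ugt1a9, a UDP-glucuronosyltransferase, was at 150, 116 and 83.5 CPM on RD and at 37.6, 24.8 and 25.3 CPM on HFD. The groups were well apart although the RD libraries varied, and Ugt1a9 fell by 1.99 ± 0.29 (adjusted p = 0.0062). Ugt1a5, outside the list, was at 62.9, 70.2 and 70.1 CPM on RD and 13.6, 14.7 and 15.1 CPM on HFD, and fell by 2.23 ± 0.45 (adjusted p = 0.039). The call of Ugt1a5 was lost without each of the 6 libraries in turn and without a filter. Transcripts of the Ugt1a locus share their last exons, so reads of these genes may have been split. Fmo1, a flavin-containing monooxygenase, fell by 0.59 ± 0.12 (adjusted p = 0.035). The carboxylesterases Ces2e and Ces1g were wholly lower and not called (-0.76 ± 0.17, adjusted p = 0.059, and -0.76 ± 0.18, adjusted p = 0.080).

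No gene of the bile acid list passed. Cyp7a1, the rate-limiting enzyme of bile acid synthesis, was at 175, 88.4 and 49.6 CPM on RD and at 32.2, 8.9 and 18.4 CPM on HFD. The groups did not overlap, yet the spread within them was wide, and the log2 fold change of -2.40 ± 0.64 had an adjusted p of 0.12. Abcc3, a basolateral exporter of conjugates, was also wholly lower and not called (-0.67 ± 0.17, adjusted p = 0.083).

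Acute phase genes went the other way. All 26 tested members of the list had a positive log2 fold change, from 0.49 to 6.70 with a median of 1.37. Of the 26, 18 were wholly higher, against 9.03% of all genes. The test called 3 higher, Orm2, Itih3 and Saa4, against 0.12% of all genes that rose. One library led this pattern: HFD 13 was the highest HFD library for 25 of the 26 members. The summed CPM of the list was 33700, 34300 and 42600 in RD 6, 7 and 8 and 46300, 130000 and 60800 in HFD 12, 13 and 14. HFD 13 was far above all others by this sum, HFD 14 was next, and HFD 12 was slightly above RD 8, the highest RD library. Member by member, HFD 12 exceeded all 3 RD libraries for 17 of 26 genes and HFD 14 did for 24.

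Orm2 encodes an orosomucoid, a carrier protein of plasma. It was at 13, 6.22 and 11.3 CPM on RD and at 51.7, 661 and 55.6 CPM on HFD. All HFD libraries were above the RD libraries, with HFD 13 an order of magnitude above the other HFD libraries. Orm2 rose by 4.65 ± 0.93 (adjusted p = 0.039), and the call was lost without HFD 13 and without each RD library. Itih3, an inter-alpha-trypsin inhibitor heavy chain that binds hyaluronan, was at 502, 577 and 702 CPM on RD and at 958, 3390 and 1180 CPM on HFD. It rose by 1.64 ± 0.32 (adjusted p = 0.027), with the call lost in the same cases.

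Saa4, the constitutively expressed serum amyloid A, was even across the HFD group. Its level was 466, 415 and 600 CPM on RD and 1040, 1070 and 1010 CPM on HFD. The groups did not overlap and HFD 13 did not stand out. Saa4 rose by 1.07 ± 0.22 (adjusted p = 0.041), and the adjusted p ran from 0.00064 to 0.16 over the other settings. The call of Saa4 was lost without each of the 6 libraries in turn and in the fit of the 6 libraries alone.

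The induced serum amyloids behaved differently. Saa3 was at 5, 4.96 and 4.03 CPM on RD and at 8.64, 973 and 13.1 CPM on HFD. HFD 13 was far above all others, while HFD 12 and 14 were slightly above RD. The log2 fold change was 6.15 ± 1.36 (adjusted p = 0.062) with HFD 13 and 1.22 ± 0.58 (adjusted p = 0.61) without it. Lcn2, lipocalin-2, chosen after its values were seen, was at 8.49, 3.76 and 11.6 CPM on RD and at 23.1, 2370 and 81.9 CPM on HFD (6.70 ± 1.62, adjusted p = 0.085). A2m, alpha-2-macroglobulin, chosen the same way and not on the list, was at 213 CPM in HFD 13 and at 0.245 to 1.59 CPM in the other 5 libraries.

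Without HFD 13 none of the 26 genes passed and the median of the list was 0.76. With RD 8 left out too it was 0.99, again with none called, while DESeq2 on all libraries called 16. The count was also 0 without RD 6, without RD 7, without RD 8 and in the fit of the 6 libraries alone, and it was 10 without HFD 12. Other genes moved with HFD 13. The neutrophil list summed to 27.8 CPM there against 7.24 to 11.2 CPM elsewhere, the macrophage list to 532 CPM against 332 to 426 CPM, and Spp1, of the bile duct list, stood at 282 CPM against 24.4 to 43.1 CPM. Neutrophil-defining S100a8 and S100a9 were at 6.52 and 8.32 CPM in HFD 13 and at 0.966 to 3.13 CPM elsewhere. The metallothionein gene Mt1, a list member chosen after its values were seen, was at 1260 CPM in HFD 13 and 225 CPM in RD 8, against 32.2 to 329 CPM in the other 4. In bulk tissue more cells of a type and more RNA per cell cannot be told apart, and the part of these cells in the result was not tested.

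**Figure D3:**
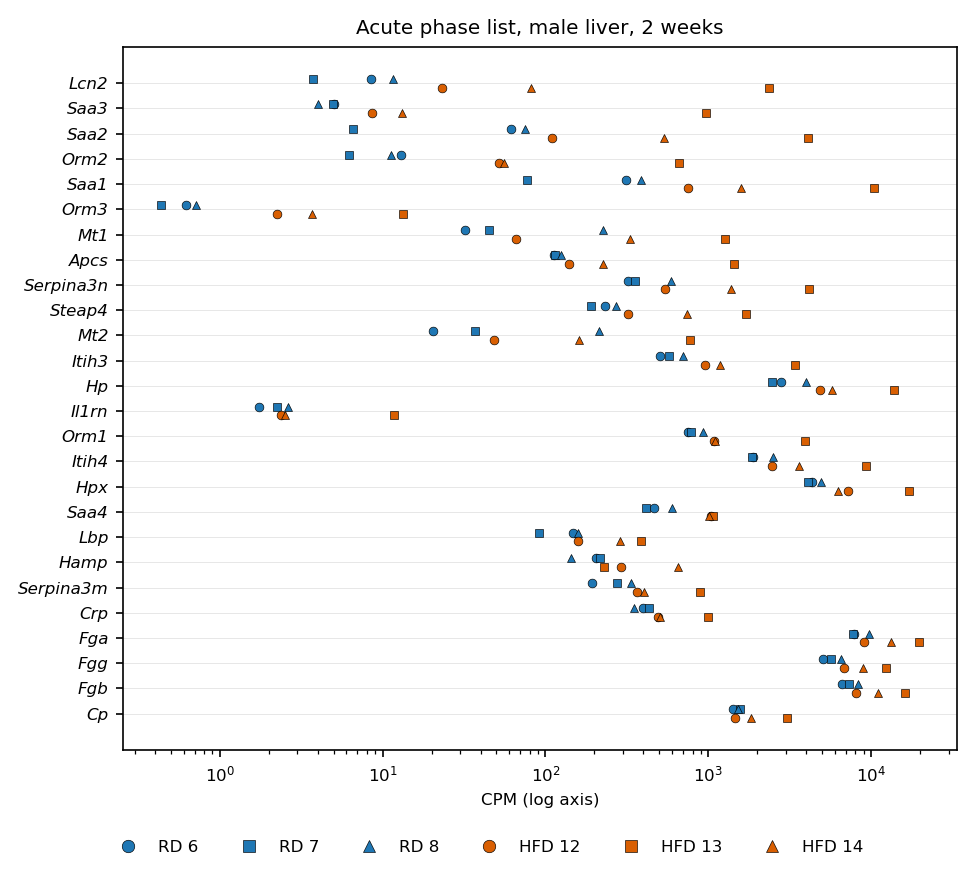
CPM on a log axis of the 26 tested acute phase genes, 1 point per library, ordered by log2 fold change with the highest at the top. HFD 13 (orange square) is the highest library for 25 of the genes and stands far to the right for Lcn2, Saa3 and Saa2, whereas the 3 HFD points of Saa4 fall together.

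Promoters of acute phase genes often carry sites of C/EBP factors. The letters TTGCNNAA, searched on both strands, occur in 9.57% of all windows and in 9.61% of tested genes with a window, and in 13 of 22 acute phase genes with a window (59.1%). Of 16 genes that rose and have a window 3 hold it (18.8%), among them Orm2 and Saa4. The STAT letters TTCNNNGAA occur in 6 of the 22 (27.3%) against 7.47% of tested genes. Windows are shown for the members that rose and hold the letters and for Saa3, the member with the widest range between HFD libraries, with all matches in capitals.
Orm2, chr4:63362199-63362448, plus strand: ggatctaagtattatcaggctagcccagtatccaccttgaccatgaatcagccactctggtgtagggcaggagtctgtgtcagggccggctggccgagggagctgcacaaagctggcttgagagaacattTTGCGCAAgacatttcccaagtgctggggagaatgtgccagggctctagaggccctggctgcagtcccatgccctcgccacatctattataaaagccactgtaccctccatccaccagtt
Saa4, chr7:46732604-46732853, minus strand: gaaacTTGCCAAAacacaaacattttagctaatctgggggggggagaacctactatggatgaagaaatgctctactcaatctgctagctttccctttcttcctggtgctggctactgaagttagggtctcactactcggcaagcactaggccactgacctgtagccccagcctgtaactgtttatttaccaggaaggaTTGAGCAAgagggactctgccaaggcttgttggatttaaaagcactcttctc
Saa3, chr7:46715677-46715926, minus strand: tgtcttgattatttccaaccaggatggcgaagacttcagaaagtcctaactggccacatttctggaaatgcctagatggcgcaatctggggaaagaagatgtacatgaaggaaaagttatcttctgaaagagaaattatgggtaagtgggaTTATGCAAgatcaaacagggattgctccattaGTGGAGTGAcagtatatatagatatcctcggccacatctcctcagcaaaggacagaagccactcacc
The match of Orm2 reads the same on both strands. That of Saa3 nearest to its start is of the sterol letters TCACNCCAC, present in 1.05% of all windows, and the others are of the C/EBP letters.

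Cell cycle genes were low in level and lower on HFD. Of 32 tested members 16 were wholly lower, against 8.25% of all genes, and none was wholly higher, against 9.03%. The median log2 fold change was -0.51, and 1 member, the mitotic cyclin Ccnb2, fell, against 0.22% of all genes. Ccnb2 was at 1.12, 1.24 and 1.15 CPM on RD and at 0.533, 0.397 and 0.277 CPM on HFD. The groups were apart, and Ccnb2 fell by 1.54 ± 0.30 (adjusted p = 0.027). The spindle genes Ckap2l and Hmmr, outside the list, also fell, by 1.69 ± 0.37 (adjusted p = 0.046) and by 1.16 ± 0.24 (adjusted p = 0.044). Cdc20, Ccnb1 and Rrm2 were wholly lower without passing, with log2 fold changes of -1.88 ± 0.44, -1.61 ± 0.40 and -1.04 ± 0.24. The median of the list without HFD 13 was -0.64, and no member passed there. With 1 library left out, Ccnb2 passed only without HFD 12 and Hmmr only without HFD 13. Ckap2l passed in none of these fits.

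On the list of cytokine signalling genes 1 of 25 tested members fell, Nfkbia, against 0.22% of all genes, and none rose. Wholly higher were 3, against 9.03% of all genes, and wholly lower 6, against 8.25% of all genes. The median was 0.13. Nfkbia, which encodes the NF-kappaB inhibitor IkappaB-alpha, was at 26.8, 33.3 and 32.1 CPM on RD and at 18.8, 14.8 and 13.2 CPM on HFD. No libraries overlapped, and Nfkbia fell by 0.98 ± 0.18 (adjusted p = 0.022). That call was lost without HFD 13, HFD 14, RD 7 or RD 8, and in the fit of the 6 libraries alone. Traf2 and Mapkapk2 are not on the list and were chosen after their values were seen. Traf2, an adaptor of TNF receptors, fell by 0.71 ± 0.15 (adjusted p = 0.044). Mapkapk2, a kinase downstream of p38, rose by 0.68 ± 0.14 (adjusted p = 0.044). With 1 library left out, Traf2 passed only without RD 7 and Mapkapk2 only without HFD 12.

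Genes of nutrient handling were mostly not called. Sds, serine dehydratase, feeds serine carbon into gluconeogenesis. It was at 75.5, 62.4 and 81.8 CPM on RD and at 159, 170 and 120 CPM on HFD, and rose by 1.03 ± 0.19 (adjusted p = 0.023). This call was lost without HFD 13, without each RD library and in the fit of the 6 libraries alone. Sds was the 1 gene called among 30 amino acid and urea cycle genes, against 0.12% of all genes that rose. Of these 30 genes 9 were wholly higher, against 9.03% of all genes, and 1 was wholly lower, against 8.25%. Pcx, pyruvate carboxylase, was at 60.4, 68.7 and 78.6 CPM on RD and at 110, 155 and 153 CPM on HFD, wholly higher but short of the threshold (1.01 ± 0.25, adjusted p = 0.088). Ppp1r3c, a glycogen-targeting subunit of protein phosphatase 1, was wholly lower and not called (-2.09 ± 0.50, adjusted p = 0.082).

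Fatty acid oxidation genes showed no call among 38 tested. Wholly lower were 9, against 8.25% of all genes, and none was wholly higher, against 9.03%. The list's median was -0.14. The median was 0.01 without HFD 13. The hormone gene Fgf21 was at 6.24, 5.85 and 4.52 CPM on RD and at 0.95, 0.51 and 0.971 CPM on HFD. Its groups did not overlap, and the log2 fold change of -2.77 ± 0.80 had an adjusted p of 0.15. The PPARalpha targets Cyp4a14, Acaa1b and Ehhadh were wholly lower as well, with adjusted p values of 0.24, 0.13 and 0.27. Lipa, the lysosomal acid lipase, was wholly lower with an adjusted p of 0.051 (-0.51 ± 0.11). Tmem135, a membrane protein of peroxisomes and mitochondria, fell by 0.51 ± 0.11 (adjusted p = 0.044). It was the 1 gene called among 26 peroxisomal genes, against 0.22% of all genes that fell. Its call was lost without each of the 6 libraries in turn.

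Chaperone lists differed in sign. Of 25 genes of the unfolded protein response 11 were wholly higher, against 9.03% of all genes, and 1 was wholly lower, against 8.25%. The median of the 25 was 0.44 (0.27 without HFD 13 and RD 8), and none passed. Hsp90b1 and Creld2, both of the endoplasmic reticulum, were wholly higher and not called (0.71 ± 0.34, adjusted p = 0.47, and 1.24 ± 0.58, adjusted p = 0.45). The 13 heat shock genes had a median of -0.38, which was -0.13 without HFD 13 and -0.08 without RD 8 as well, with 14 genes tested in both. HFD 13 was below all RD libraries for 11 of the 13, against 6 for each other HFD library. Hspa1b was at 21, 18.4 and 21.8 CPM on RD and at 5.8, 4.67 and 6.29 CPM on HFD (-1.87 ± 0.62, adjusted p = 0.23). Circadian clock genes had a median of 0.40, and none of the 21 was called. Wholly higher were 7, against 9.03% of all genes, and wholly lower were 3, against 8.25%. The labels used here give no hour of collection.

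**Figure D4:**
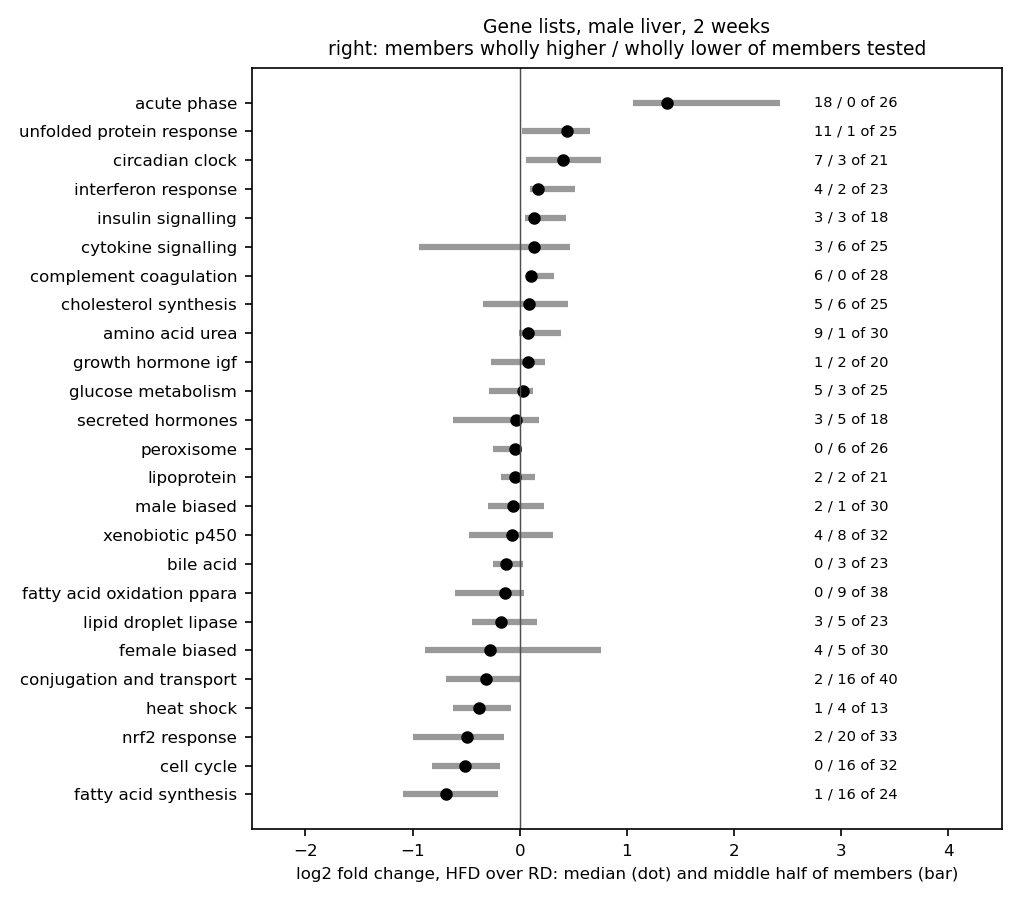
Log2 fold change of HFD over RD for the 25 pathway lists, with the median of tested members as a dot, the span from their 25th to their 75th percentile as a bar, and at the right the members wholly higher and wholly lower on HFD. Acute phase genes have the highest median (1.37) and fatty acid synthesis genes the lowest (-0.69).

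Several called genes lay outside the lists. Slc39a4 encodes ZIP4, a zinc importer of the plasma membrane, at GRCm38 chr15:76612383-76617384. It was at 36.4, 37.5 and 39 CPM on RD and at 17.9, 23.2 and 19.2 CPM on HFD. Both groups were tight and apart, and Slc39a4 fell by 0.90 ± 0.12 (adjusted p = 0.0062), with adjusted p values up to 0.046 over the other settings. The zinc finger genes Zscan21 and Zfp790 fell by 0.73 ± 0.11 (adjusted p = 0.0062) and by 1.05 ± 0.21 (adjusted p = 0.029). Gm2a, the GM2 activator protein of lysosomes, fell by 0.80 ± 0.17 (adjusted p = 0.041). The calls of Zfp790 and Gm2a were lost without any one library other than HFD 12. Zscan21 lost its call in the fit of the 6 libraries alone and without HFD 13 and RD 8 together.

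Among genes that rose, Slc43a1, an amino acid transporter, was at 3.73, 4.34 and 3.49 CPM on RD and at 9.5, 9.53 and 9.76 CPM on HFD. H3f3b, which encodes histone H3.3, was at 121, 180 and 181 CPM on RD and at 390, 337 and 511 CPM on HFD. HFD 13 was not the highest library in H3f3b and did not stand out in Slc43a1. They rose by 1.32 ± 0.26 (adjusted p = 0.029) and 1.36 ± 0.28 (adjusted p = 0.041). The formin Inf2, the G protein subunit Gna14 and the ESCRT-I subunit Vps37b rose by 1.08 ± 0.21, 1.16 ± 0.24 and 1.03 ± 0.21. Prg4, lubricin, was at 53.2, 50.5 and 57 CPM on RD and at 73.3, 330 and 164 CPM on HFD, with HFD 13 the highest, and rose by 1.82 ± 0.38 (adjusted p = 0.044). Crybb3, a beta-crystallin, and the ubiquitin ligase Pdzrn3 followed the same order of HFD libraries and rose by 3.70 ± 0.59 and 1.81 ± 0.39. None of these increases passed without HFD 13, where no gene rose at all, and of all genes 1 rose without RD 6, 2 without RD 7, 5 without RD 8 and 9 without HFD 14. Of the increases the one of Crybb3 was the one that passed under the most settings, 9 of 12.

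Pancreatic genes made up part of the list that fell. The digestive enzyme genes Amy2a5, Cela1, Cela2a, Cpb1 and Ctrl and the identical entries Amy2a2, Amy2a3 and Amy2a4 were among the 35. Amy2a5, pancreatic amylase, was at 30.9, 0.161 and 1830 CPM in RD 6, 7 and 8 and at 0.274, 0.0425 and 0.0771 CPM in HFD 12, 13 and 14. RD 8 was far above all others, RD 6 was next, and RD 7 lay within the HFD range. The exocrine pancreas list summed to 240, 1.38 and 8090 CPM on RD and to 1.74, 2.17 and 1.07 CPM on HFD, and RD 7 lay within the range of the HFD group. Nupr1, a stress-induced transcription regulator, followed RD 8 with 22.8 CPM there and 0.763 to 2.58 CPM elsewhere, and its call was lost without RD 8 and without each HFD library. Without RD 8 the log2 fold change of Amy2a5 went from -12.18 to -6.87 (adjusted p = 0.044), with RD 6 then the 1 library of high level. In the fit of the 6 libraries alone Amy2a5 did not pass (adjusted p = 0.38).

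No hepatocyte marker was called, and the median over 11 genes was 0.05. Albumin, Alb, was at 59900, 74900 and 73700 CPM on RD and at 48800, 37900 and 44700 CPM on HFD, wholly lower with an adjusted p of 0.059 (-0.67 ± 0.15). Pericentral and periportal marker lists had medians of -0.01 and 0.14, and Sds was the 1 member called, against 0.12% of all genes that rose. Kupffer cell and macrophage lists had medians of 0.34 and 0.39 (0.18 and 0.08 without HFD 13) with none called, and HFD 13 held the highest sum of both. The B cell list had a median of 0.11, with 6 of 11 members positive and 5 negative. Of its members 3 were wholly lower, against 8.25% of all genes, 0 were wholly higher, against 9.03%, and none was called. Its member Ighm was at 13.6, 15.3 and 27 CPM on RD and at 5.4, 5.77 and 5.75 CPM on HFD (-1.72 ± 0.38, adjusted p = 0.058).

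The diet effect was then compared between the sexes at 2 weeks, using separate animals and the test of the interaction. No gene passed in the edgeR test (0% called), with 1511 genes (9.5%) at an unadjusted p under 0.05 and 148 called by DESeq2. Among the females HFD 5 stood apart, over 2-fold from both others of its group for 819 genes and with 2.975% of its counts in mitochondrial genes, and without it 9 genes passed. Of the 54 genes that passed in males 4 also passed in females, against 0.252% of all genes there: Gstm3, Tmem135, Gm4477 and Gm11128, all lower in both. In females 5 of all genes rose (0.0315%) and 35 fell (0.22%). Of the 19 genes that rose in males 12 had a positive value in females, and of the 35 that fell 23 had a negative one. Cyp3a11 was at 1750, 1480 and 1410 CPM in RD females and at 1370, 1490 and 1340 CPM in HFD females, a log2 fold change of -0.14 ± 0.29. Its difference between the sexes, -1.63 with an adjusted p of 0.18, did not pass.

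The gene with the smallest p in this interaction was Msmo1, the sterol methyl oxidase of cholesterol synthesis. It was at 151, 149 and 121 CPM in RD males and at 189, 260 and 177 CPM in HFD males. In females it was at 232, 176 and 127 CPM on RD and at 57.1, 64.4 and 73.9 CPM on HFD. The libraries separated in opposite directions, and the difference of the diet effects was 2.03 ± 0.32 with an adjusted p of 0.056. Hsd17b7 of the same pathway differed by 1.70 ± 0.35 (adjusted p = 0.12). Of the 25 cholesterol genes none passed in males, where the median was 0.09. Wholly higher in males were 5, against 9.03% of all genes, and wholly lower were 6, against 8.25%. In females 11 of the 25 fell, against 0.22% of all genes there, and the median was -1.38. Tm7sf2 and Pmvk were among the wholly lower genes in males, with log2 fold changes of -0.71 ± 0.20 and -1.01 ± 0.41.

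The diet effect in males was also compared between 2 and 12 weeks, in separate cohorts. Of the 54 genes 6 also passed at 12 weeks, against 1.12% of all genes (0.918% lower): Slc39a4, Cyp3a11, Cyp3a59, Ugt1a9, Cyp2c55 and Gm4477, all lower at both times. Slc39a4 was at 23, 19.4 and 22.5 CPM on RD and 10.2, 10.7 and 9.44 CPM on HFD at 12 weeks, and fell by 1.10 ± 0.13 (adjusted p = 0.00037). Cyp3a11 was at 2690, 2660 and 1880 CPM on RD and 569, 374 and 301 CPM on HFD at 12 weeks, and fell by 2.54 ± 0.31 (adjusted p = 0.00060). The differences between the times for these genes did not pass, with adjusted p values of 0.75 and 0.53.

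Both this test and that between the sexes use the same 6 libraries of males at 2 weeks. The test of the difference between the times called 56 genes (0.352%), 8 with a lower value at 2 weeks (0.0503%) and 48 with a higher one (0.302%). Me1, low after 2 weeks on HFD, was at 318, 363 and 288 CPM on RD and at 528, 329 and 162 CPM on HFD after 12 weeks. The 12-week groups overlapped, and the diet effects differed by -2.20 ± 0.44 (adjusted p = 0.035). Genes of polyunsaturated fatty acid synthesis followed. Fads2 was at 470, 432 and 482 CPM on HFD at 2 weeks, below RD, and at 1260, 1570 and 955 CPM on HFD against 624, 643 and 650 CPM on RD at 12 weeks. The difference was -1.70 ± 0.24 (adjusted p = 0.0042), and it passed in 17 of 18 other settings. Elovl5 and Fads1 differed by -1.11 ± 0.23 (adjusted p = 0.036) and -1.03 ± 0.22 (adjusted p = 0.037). The peroxisomal transporter gene Abcd2 and Fmo1 differed by -2.15 ± 0.46 (adjusted p = 0.045) and -1.0 ± 0.17 (adjusted p = 0.012).

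Of the 48 genes with a higher value at 2 weeks, 40 fell at 12 weeks, a count that choosing them by the difference favours. Emr1, which encodes the macrophage marker F4/80, was at 28.5, 28.7 and 22.4 CPM on RD and at 37.7, 40.3 and 22.7 CPM on HFD at 2 weeks. At 12 weeks it was at 16.8, 20.9 and 17.6 CPM on RD and at 5.44, 3.9 and 6.83 CPM on HFD. The groups overlapped at 2 weeks and were far apart at 12, and the difference was 2.11 ± 0.35 (adjusted p = 0.012). The scavenger receptor Cd163 and the Kupffer cell genes Vsig4, Fcna and Fabp7 differed by 2.49 ± 0.49, 1.64 ± 0.31, 1.21 ± 0.23 and 2.13 ± 0.39. Nfam1, an immune receptor gene, and Rims3 differed by 2.24 ± 0.47 and 2.13 ± 0.44. Among genes with a mean log2 CPM of at least 1 over the 6 libraries at 2 weeks, Bank1 and Fam167a had the highest values. Bank1, a scaffold protein of B cells, differed by 2.95 ± 0.53 (adjusted p = 0.018) and Fam167a by 2.86 ± 0.45 (adjusted p = 0.010). Over the 12 libraries of this comparison their mean log2 CPM was lower, at 0.16 and 0.6. Bank1 was at 2.24 to 3.13 CPM on RD and at 2.24 to 3.94 CPM on HFD at 2 weeks, and at 0.688 to 1.4 CPM on RD and 0.1 to 0.304 CPM on HFD at 12 weeks. Of 15 macrophage list members 3 passed this test, and of 12 Kupffer list members 3 did, against 0.352% of all genes. The count of 56 fell to 3 without HFD 13 and to 8 without RD 8, and to 4 without HFD 3 or RD 3 of the 12-week cohort. HFD 4 of that cohort stood apart, over 2-fold from both others for 851 genes, and without it 115 genes passed.

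**Figure D5:**
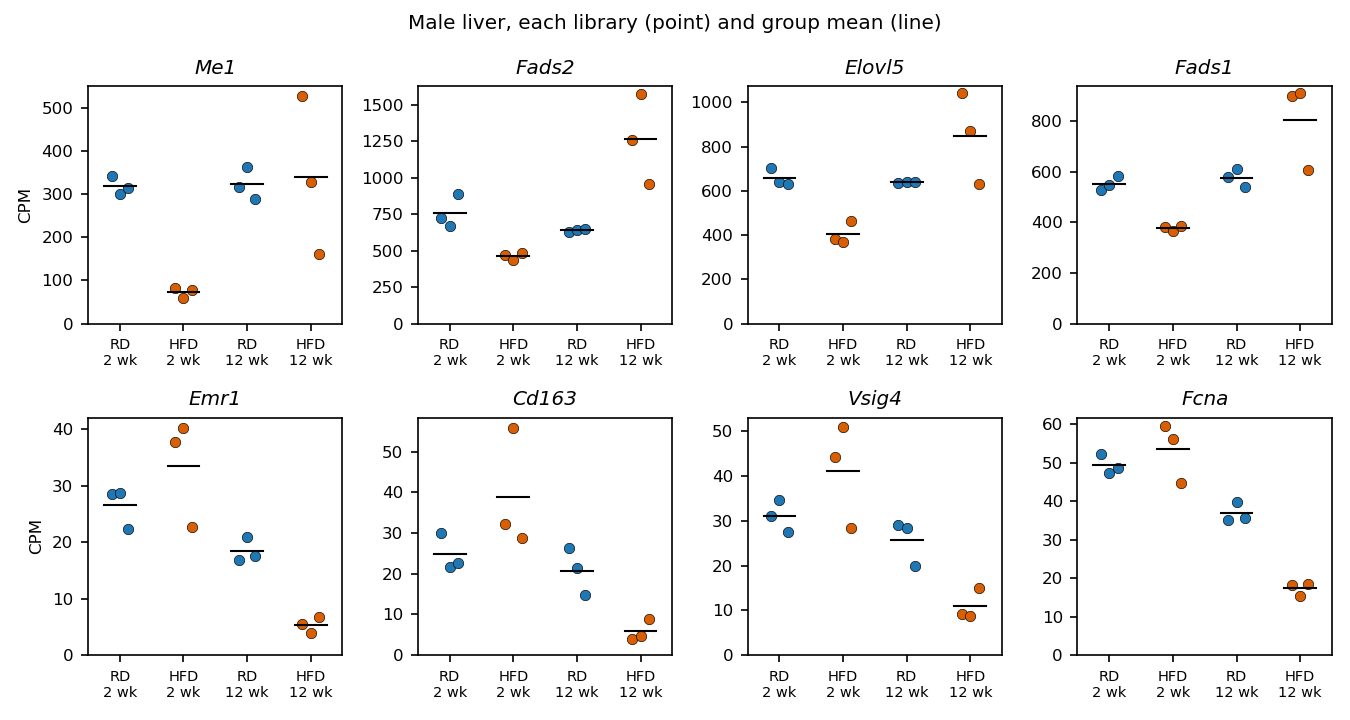
CPM of 8 genes in the male liver libraries at 2 and 12 weeks on a linear axis from 0, with each library as a point and the group mean as a line. The desaturase, elongase and Me1 panels are lowest on HFD at 2 weeks, and the macrophage panels are lowest on HFD at 12 weeks.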

How the data were processed

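RNA-seq of 48 mouse libraries was deposited as 1 table of genes by libraries, and the 24 liver libraries were used. Libraries were stranded and polyA-selected from 200 ng of RNA, per the labels' protocols. The authors deposited expected counts (estimated counts) per gene symbol, which are not whole and not scaled, per the file headers and values. The submitters' processing notes name kallisto, DESeq2, edgeR and the GRCm38 build; versions, the summing of transcripts to genes and the strand setting are not given in the sources used here. Near-identical genes can share such estimates.

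Counts were rounded to whole numbers, filtered with edgeR's filterByExpr by group (15897 of 30055 symbols kept), scaled by TMM and fitted with glmQLFit (robust, edgeR 4.0.16, R 4.3.3) over all 24 liver libraries in 8 groups, which left 16 residual degrees of freedom. P-values were adjusted by Benjamini and Hochberg over all genes tested, and the SE is the log2 fold change over the square root of F. Mean levels of lists are means of log2 CPM with a prior count of 2. Liver totals ranged from 50888675 to 80062332 counts. The fit was tested on simulated counts. No replicate columns were identical.

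Alternatives were DESeq2 1.42.0, RLE size factors, no filter, no robust fit, the compared groups alone and leaving out each library. Leaving out HFD 13 and RD 8 together was added after seeing the data. The 39 gene lists (754 genes, 751 found, 6 of them by an older symbol, 736 tested) and the comparison itself were chosen with earlier results of these data known. Named were the 12 highest and 15 lowest called genes with a mean log2 CPM of at least 1 over the 6 libraries, groups that did not overlap and no predicted-gene symbol. Up to 6 members of each list with the smallest p and all called members were named as well. So were the 4 highest and 4 lowest called genes of each interaction, at the same level over the 6 libraries, and markers that define cell types. Other genes were chosen after their values were seen, as said in the text or as follows: Slc39a4, Zscan21, Gm2a, Ckap2l, Hmmr, Nupr1, the pancreatic genes outside their list, the called genes shared with females or 12 weeks, Fads1, Emr1, Fcna and Rims3. List sums are CPM on the same TMM scale. Gene positions are from GENCODE M21, and promoter windows are from RefSeq. Adipose tissue was not used here.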

Additional observations from a re-analysis of the deposited data

Results flagged for a closer look

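For 15 named genes the diet effect in males differed between 2 and 12 weeks by the test of the difference itself (edgeR's quasi-likelihood test, adjusted p under 0.05), and each value here is the log2 effect at 2 weeks minus that at 12 weeks. The effect was lower at 2 weeks for Me1 (-2.20), Abcd2 (-2.15), Fads2 (-1.70), Elovl5 (-1.11), Fads1 (-1.03) and Fmo1 (-1.0). It was higher at 2 weeks for Bank1 (2.95), Fam167a (2.86), Cd163 (2.49), Nfam1 (2.24), Rims3 (2.13), Fabp7 (2.13), Emr1 (2.11), Vsig4 (1.64) and Fcna (1.21). None of the 15 passed when the compared groups were fitted alone, and none changed sign under the 18 other settings. Fads2 passed in 17 of them, Fam167a in 15, Fmo1 in 14, Emr1 and Bank1 in 13, Fabp7, Vsig4 and Fcna in 12, Cd163 and Rims3 in 10, Nfam1 in 9, Me1 in 8, Elovl5 in 7, Fads1 in 6 and Abcd2 in 5.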

How the results depend on the processing

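For the diet effect in males at 2 weeks, 54 genes passed (19 higher, 35 lower). DESeq2 called 348 (159 higher, 189 lower), 53 of the 54 among them in the same direction, and the fit of the 6 libraries alone called 32 (7 higher, 25 lower), 11 of the 54 among them. Without a filter 10 genes were higher, and without HFD 13 and RD 8 together 2 genes passed (0 higher, 2 lower). Leaving out 1 library at a time gave 12 to 113 genes, 0 to 68 higher and 12 to 45 lower, with the lowest total without HFD 13 and the highest without HFD 12. For the difference between the sexes 0 genes passed, DESeq2 called 148 (77 higher, 71 lower), and leaving out 1 library gave 0 to 9, with 0 to 4 higher and 0 to 5 lower. It was 1 gene without a filter and in the compared groups alone. For the difference between 2 and 12 weeks 56 genes passed, and DESeq2 called 333 (230 higher, 103 lower). The compared groups alone gave 1 (1 higher, 0 lower), which was not among the 56. No filter gave 5 lower ones, and leaving out 1 library gave 3 to 115 (2 to 91 higher, 1 to 24 lower). No named gene reversed. The cause of these shifts was not tested.

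No paired analysis was possible for the diet effect in males at 2 weeks because the diets share no library number. With the replicate block for the numbers shared by females and by the 12-week males, 1 gene passed in the sex comparison (1 higher) and 95 in the time comparison (77 higher, 18 lower). Same-numbered libraries on the different diets did not deviate together (correlations of -0.11 to 0.13), and the meaning of the numbers was not tested.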
